A study of Mus musculus with 18 samples.

Results

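The ATF4 stress response genes described here are 10 mouse genes chosen by name: Atf4 and Ddit3, which encode transcription factors, Ddit4, Trib3, Sesn2 and Chac1, which encode stress effectors, and Asns, Phgdh, Psat1 and Shmt2, which encode enzymes of amino acid and one-carbon metabolism. They are 10 of 55099 genes kept in the siRNA files and of 55124 kept in the treatment files, and the choice was made by gene name with earlier results of these data known. RNA was sequenced by Smart-seq2, a full-length method that starts from poly(A) RNA, from tubes of pooled mouse embryos. The siRNA experiment had 4 groups of 3 libraries: embryos given an siRNA against Echs1 (siEchs1) and embryos given a control siRNA (siCon), each at stages labelled L2C and E2C. Echs1 encodes a mitochondrial enoyl-CoA hydratase that acts on crotonyl-CoA. The treatment experiment had 3 groups of 2 libraries from embryos of wild-type genotype, exposed as zygotes to sodium crotonate, sodium acetate or DMSO and collected at the early 2-cell stage (E2C). The labels gave no doses, no strain, no parental age and no route of siRNA delivery, and did not spell out L2C. Because each tube held 5 to 10 embryos, a change of RNA in every cell and a change in the share of cells or embryos that held the RNA cannot be told apart. The labels did not say whether libraries of a group came from separate collections, so p-values measure the spread between these tubes, which may be technical.

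ATF4 is the main transcription factor of the integrated stress response. Stress-sensing kinases phosphorylate the initiation factor eIF2, general translation drops, and translation of Atf4 mRNA goes up, so that much of the control of ATF4 acts on the protein and is not seen in RNA. ATF4 protein binds composite C/EBP-ATF sites, often as a dimer with a C/EBP protein, and drives genes for amino acid synthesis and import, for tRNA charging and for redox balance. CHOP, the product of Ddit3, acts beside it, and TRIB3, the product of Trib3, feeds back on both. The cleavage stages are also the time when maternal RNA is cleared and the embryo's own genes are switched on, so stage itself sets the level of many transcripts.

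Promoter windows from RefSeq (build GRCm38.p6, the assembly behind mm10), spanning 250 bases before to 50 after a start site, were matched for 10 of 10 genes in 11 windows. The core of the C/EBP-ATF response element was searched as TGATGNAA on both strands. It occurred in the windows of 3 genes, Asns, Chac1 and Trib3, against 1304 of 32851 windows of all genes (3.97%), and in none of the windows of Atf4, Ddit3, Ddit4, Sesn2, Psat1, Phgdh and Shmt2. A match is a description of the letters and not a binding site. The matches are shown because these 3 genes behaved differently from one another in the libraries below. Capitals mark the match, sequences read 5′ to 3′ on the strand of the gene, and positions count from the start site.
Asns, 250 bases upstream at chr6:7693210-7693459 (minus strand), match beginning at -23: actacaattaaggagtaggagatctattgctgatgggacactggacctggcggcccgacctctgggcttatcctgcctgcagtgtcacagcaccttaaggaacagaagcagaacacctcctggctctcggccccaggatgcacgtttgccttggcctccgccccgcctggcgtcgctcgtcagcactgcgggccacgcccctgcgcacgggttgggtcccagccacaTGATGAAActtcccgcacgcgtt
Chac1, 250 bases upstream at chr2:119350992-119351241 (plus strand), match to the reverse complement beginning at -193: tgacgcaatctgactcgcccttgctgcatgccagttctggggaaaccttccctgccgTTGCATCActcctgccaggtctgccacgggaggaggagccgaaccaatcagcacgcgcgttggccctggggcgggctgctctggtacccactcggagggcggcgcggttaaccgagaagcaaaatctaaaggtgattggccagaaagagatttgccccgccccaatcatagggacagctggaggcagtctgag
Trib3, a 30-base stretch at chr2:152344028-152344057 (minus strand), match to the reverse complement beginning at 15: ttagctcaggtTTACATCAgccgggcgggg

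Values were FPKM (mapped fragments scaled by the length of the gene's exons and by the depth of the library). Totals per library were 708113 to 1123993 FPKM in the siRNA experiment and 771636 to 992596 FPKM in the treatment experiment, and 13378 to 16703 and 12037 to 12856 genes reached 1 FPKM. The labels of the siRNA held against Echs1 itself: the siEchs1 libraries had 0.89 to 4.32 FPKM at L2C, against 24.4 to 39.2 FPKM in siCon, and 0.71 to 5.88 FPKM at E2C, against 27.5 to 32.5 FPKM in siCon (log2 changes of -3.19 and -3.02, limma adjusted p = 0.000435 and 0.00252). The state of the embryos moved with the siRNA as well. Summed over 6 genes of the 2-cell embryo (Zscan4c, Zscan4d, Obox6, Zfp352, Tdpoz4 and Tcstv3), levels were 67.2 to 175 FPKM in siEchs1 against 1087 to 1593 FPKM in siCon at L2C, and 237 to 397 against 1017 to 1245 FPKM at E2C. Summed over 7 genes of the oocyte and zygote, levels were 11036 to 15357 FPKM in siEchs1 against 539 to 757 FPKM in siCon at L2C. At E2C, siEchs1 replicates 1 and 2 had 7756 and 11657 FPKM for these oocyte genes, while replicate 3 had 1381 FPKM, near the 1021 to 1318 FPKM of siCon. Replicate 3 thus stood apart in the oocyte genes. Its Echs1 level of 3.82 FPKM lay within its group, and its 2-cell sum of 397 FPKM lay below all siCon E2C libraries. The main effects on the 10 genes that rest on replicate 3 are given with and without it, or as ranges over libraries left out. Some list counts are also given both ways, while single genes of the lists are given with it alone. Transcripts of the mitochondrial genome made up 0.831 to 2.27% of siEchs1 and 7.58 to 11.2% of siCon libraries at L2C, and 1.69 to 10.3% and 13.1 to 17.0% at E2C. Summed over 8 genes of cumulus and granulosa cells, levels were 11.0 to 17.7 FPKM in siEchs1 against 97.7 to 147 FPKM in siCon at L2C, and 9.15 to 12.1 against 8.09 to 13.5 FPKM at E2C. Amhr2 made up most of the siCon L2C sum, with a mean of 113 FPKM, while Ptx3 (at most 0.12 FPKM), Has2 (0.61), Inhba (0.82) and Foxl2 (1.43) were near 0 and Fshr, Tnfaip6 and Cyp19a1 reached 2.85, 3.37 and 8.90 FPKM. Of the 3 cumulus genes tested, Cyp19a1 was called higher in siEchs1 at L2C, Amhr2 lower at L2C and Tnfaip6 lower at both stages. Summed over 6 blood genes, levels were 3.43 to 18.7 FPKM in siEchs1 against 90.5 to 125 FPKM in siCon at L2C, and 2.74 to 10.5 against 59.7 to 77.8 FPKM at E2C. The globin genes Hba-a1 and Hba-a2 were called lower at both stages, while Hbb-bt, Ptprc and Alas2 reached at most 0.34 FPKM. Over 4 genes of oviduct epithelium, mainly Epcam, the sums were 2.23 to 20.5 FPKM in siEchs1 against 94.97 to 179 FPKM in siCon at L2C, and 2.12 to 11.9 against 21.4 to 26.3 FPKM at E2C. Over 5 genes of sperm and testis they were 6.94 to 19.7 against 5.30 to 10.6 FPKM at L2C, and 27.6 to 40.4 against 34.5 to 76.2 FPKM at E2C. The part of these shifts in the results below was not tested.

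Across the 12 siRNA libraries the 10 genes fell into unlike patterns. Trib3, Sesn2 and Psat1 rose between E2C and L2C in control embryos and stayed far lower in siEchs1 L2C embryos. Chac1 was called higher in siEchs1 at L2C (log2 change 1.90), and its change at E2C was alike but not called (2.04, limma adjusted p = 0.0535). Phgdh was called higher in siEchs1 at E2C. For neither gene was the siRNA effect called different between stages in the full set (limma adjusted p = 0.939 and 0.118). Ddit4 rose with stage in both arms, and Ddit3 and Shmt2 passed the test in no comparison of the full set of libraries. A gene was called where the limma test on log2(FPKM + 1), adjusted by Benjamini-Hochberg over all 17653 genes tested, gave a p under 0.05. Log2 changes are on that scale, where the added 1 shrinks the change of a lowly expressed gene, and each has a standard error (SE). All 10 genes passed the filter of at least 1 FPKM in 3 libraries.

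**Figure D1:**
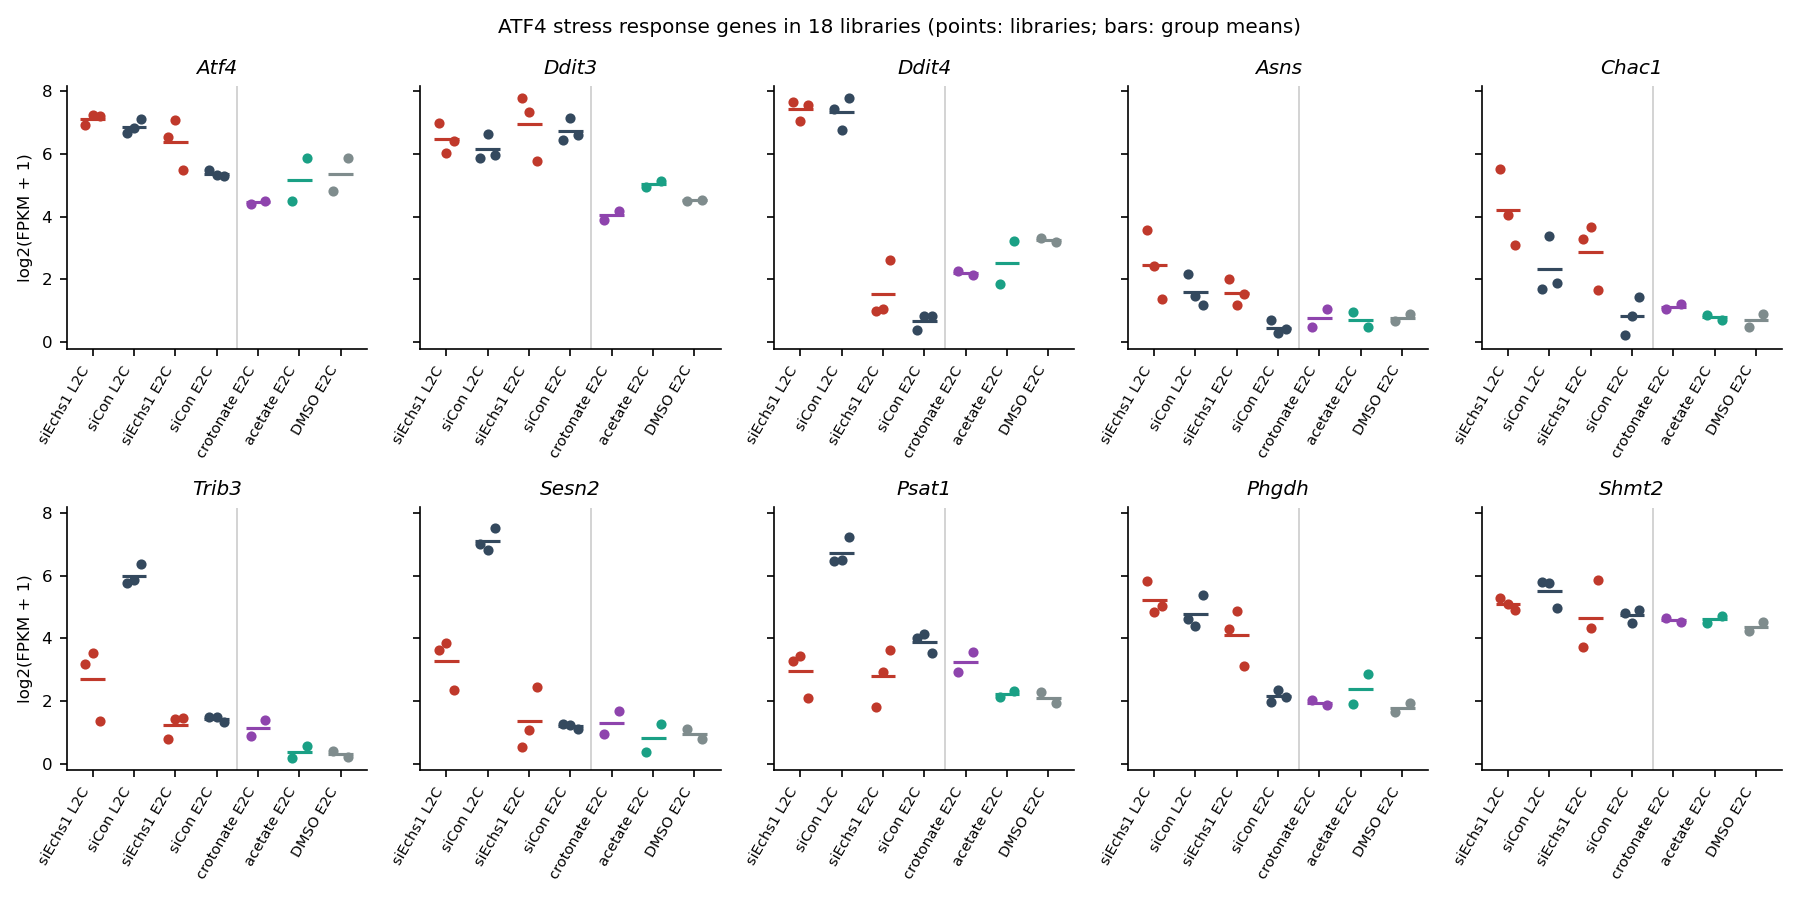
Level of each of the 10 genes in each of the 18 libraries, as log2(FPKM + 1), with 1 point per library and a bar at each group mean; a vertical line parts the siRNA experiment from the treatment experiment. Trib3, Sesn2 and Psat1 stand high in siCon L2C alone, with means of 64.1, 141 and 108 FPKM, while Ddit4 is high in both L2C groups.

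At L2C, siEchs1 against siCon called 4 of the 10 genes, with Chac1 higher and Trib3, Sesn2 and Psat1 lower. The background was large, with 48.8% of all genes called, 21.9% higher and 26.9% lower, so the share of genes called is near that of all genes. The median log2 change was 0.17 over the 10 genes and -0.08 over all genes. At E2C, 1 of 10 was called, Phgdh, which was higher, against 20.3% of all genes (11.0% higher and 9.31% lower), with medians of 0.55 and 0.15. At an unadjusted p under 0.05, 4 of the 10 were higher at E2C and 1 was lower, against 19.8% of all genes higher and 14.7% lower at that threshold. Without siEchs1 E2C replicate 3, 4 of 10 were called at E2C (Atf4, Chac1 and Phgdh higher, Psat1 lower) against 37.2% of all genes (23.2% higher and 14.0% lower). The siRNA effect at L2C minus that at E2C was called for 3 of the 10, each lower, against 17.2% of all genes (5.65% higher and 11.6% lower), with medians of -0.77 and -0.21. Without that replicate 5 of 10 were called for this difference, each lower, with Atf4 and Phgdh added, against 23.5% of all genes (7.46% higher and 16.0% lower). L2C against E2C called 2 of 10 in siEchs1 (Ddit4 and Sesn2, both higher) against 14.6% of all genes (11.8% higher and 2.73% lower), and 6 of 10 in siCon, each higher, against 50.2% (35.8% higher and 14.4% lower). Without that replicate the stage change in siEchs1 was called for 5 of 10, with Trib3 and Shmt2 added higher and Ddit3 lower, against 19.9% of all genes (14.8% higher and 5.15% lower).

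**Figure D2:**
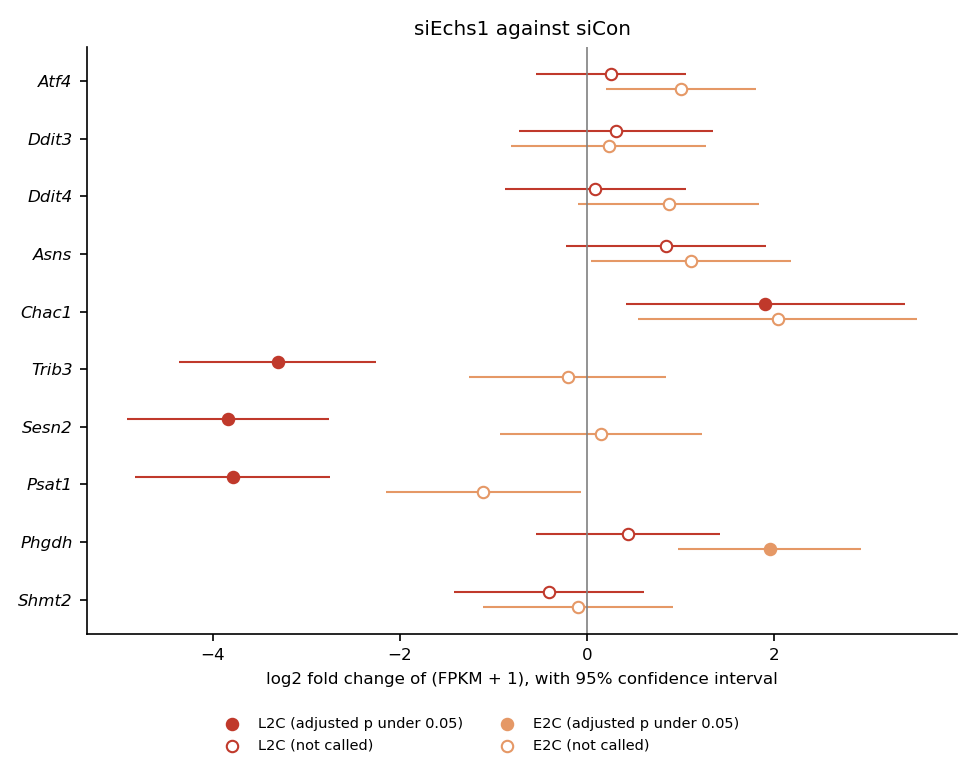
Change between siEchs1 and siCon for each gene at L2C (red) and E2C (orange), as log2 fold change of (FPKM + 1) with its 95% confidence interval; filled points were called. Trib3, Sesn2 and Psat1 lie between -3.31 and -3.84 at L2C, and Chac1 lies near 2 at both stages.

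Trib3 encodes a pseudokinase that binds ATF4 and restrains it. At L2C it had 8.06, 10.6 and 1.57 FPKM in siEchs1, against 53.4, 56.8 and 82.1 FPKM in siCon. At E2C it had 0.73, 1.69 and 1.76 FPKM in siEchs1, against 1.80, 1.80 and 1.52 FPKM in siCon. The ranges were apart at L2C and overlapped at E2C, where all libraries were low. Trib3 averaged 6.73 ± 4.64 FPKM in siEchs1 and 64.1 ± 15.7 FPKM in siCon at L2C (SD, n = 3 each), a log2 change of -3.31 (SE 0.49, limma adjusted p = 0.000243), and the change at E2C was -0.21 (adjusted p = 0.803). The difference between these effects was -3.10 (SE 0.69, adjusted p = 0.0130). L2C against E2C gave 1.46 in siEchs1 (adjusted p = 0.0633) and a rise of 4.56 in siCon (adjusted p = 1.86e-05). The siEchs1 change was called without siEchs1 E2C replicate 3 (1.58, adjusted p = 0.0467) or siEchs1 L2C replicate 3 (2.13, adjusted p = 0.00637). Over all libraries left out it was 1.04 to 2.13 (adjusted p up to 0.243). The promoter window of Trib3 holds the C/EBP-ATF match printed above.

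Sesn2 encodes a sestrin that senses leucine and curbs mTORC1. At L2C it had 11.4, 13.4 and 4.11 FPKM in siEchs1, against 128, 113 and 181 FPKM in siCon. The E2C libraries had 0.44, 1.11 and 4.43 FPKM in siEchs1, against 1.38, 1.36 and 1.15 FPKM in siCon. Every siEchs1 L2C library lay below every siCon L2C library, and the E2C ranges overlapped. The means at L2C were 9.63 ± 4.89 FPKM in siEchs1 and 141 ± 36.0 FPKM in siCon, and the log2 change was -3.84 (SE 0.50, adjusted p = 0.000132), against 0.15 at E2C (adjusted p = 0.865). The effects differed by -3.99 (SE 0.71, adjusted p = 0.00562). Sesn2 rose with stage in both arms, by 1.93 in siEchs1 (adjusted p = 0.0228) and by 5.92 in siCon (adjusted p = 5.41e-06). The call in siEchs1 was lost with quantile normalization (1.49), with no filter on low values, with the compared libraries alone, and without siEchs1 E2C replicate 1 or 2, or siEchs1 L2C replicate 1 or 2, with log2 changes of 1.52 to 2.48 over all libraries left out.

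Psat1 encodes phosphoserine aminotransferase, which follows PHGDH in serine synthesis. At L2C it had 8.77, 9.72 and 3.31 FPKM in siEchs1, against 87.9, 89.2 and 147 FPKM in siCon. At E2C it had 2.53, 6.54 and 11.3 FPKM in siEchs1, against 15.1, 16.7 and 10.6 FPKM in siCon. The groups were apart at L2C, and at E2C only siEchs1 replicate 3 reached into the siCon range. Psat1 averaged 7.27 ± 3.46 FPKM in siEchs1 and 108 ± 34.0 FPKM in siCon at L2C, with a log2 change of -3.79 (SE 0.48, adjusted p = 0.000117). At E2C the change was -1.11 (SE 0.48, adjusted p = 0.122), and without siEchs1 replicate 3 it was -1.53 (adjusted p = 0.0160). Over all libraries left out the E2C change was -1.53 to -0.63 (adjusted p up to 0.365). The effects at the 2 stages differed by -2.68 (SE 0.68, adjusted p = 0.0206), a call that was lost with no filter on low values and without siCon E2C replicate 3, siCon L2C replicate 3 or siEchs1 L2C replicate 3 (adjusted p up to 0.0580). L2C against E2C gave 0.16 in siEchs1 (adjusted p = 0.880) and a rise of 2.84 in siCon (adjusted p = 0.000422). Gm3329, an antisense pseudogene inside Psat1, reached at most 1.22 FPKM, and the files keep no strand.

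Phgdh encodes the enzyme that opens serine synthesis, and its pattern was unlike that of Psat1. At L2C it had 55.4, 27.6 and 31.6 FPKM in siEchs1, against 23.2, 20.1 and 40.2 FPKM in siCon. The E2C values were 18.5, 28.4 and 7.73 FPKM in siEchs1, against 2.90, 4.06 and 3.37 FPKM in siCon. All siEchs1 E2C libraries lay above all siCon E2C libraries, with replicate 3 the lowest of them, and the L2C ranges overlapped. Phgdh averaged 18.2 ± 10.3 FPKM in siEchs1 and 3.44 ± 0.58 FPKM in siCon at E2C (log2 change 1.95, SE 0.45, adjusted p = 0.0109). Leaving out each library in turn kept the call with changes of 1.56 to 2.44, by a narrow margin at the weakest (adjusted p up to 0.0499). At L2C the change was 0.44 (adjusted p = 0.443). The difference of the effects was -1.51 (SE 0.64, adjusted p = 0.118), and without siEchs1 E2C replicate 3 it was -2.00 (adjusted p = 0.0142). Over all libraries left out this difference was -2.00 to -1.12 (adjusted p up to 0.238). L2C against E2C gave 1.13 in siEchs1 (adjusted p = 0.120), or 1.52 without siEchs1 E2C replicate 2 (adjusted p = 0.0450), and a rise of 2.64 in siCon (adjusted p = 0.000441).

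Shmt2, the mitochondrial hydroxymethyltransferase that makes glycine and one-carbon units from serine, was called in no comparison of the full set of libraries. It had 38.3, 33.3 and 28.9 FPKM in siEchs1 L2C, against 54.8, 52.7 and 30.2 FPKM in siCon L2C. It had 12.2, 19.1 and 56.8 FPKM in siEchs1 E2C, against 27.1, 21.5 and 28.6 FPKM in siCon E2C. The siEchs1 E2C libraries lay on both sides of siCon, with replicate 3 highest. The log2 changes were -0.41 at L2C (95% interval -1.42 to 0.61) and -0.10 at E2C (-1.11 to 0.92), with adjusted p-values of 0.494 and 0.912. L2C against E2C gave 0.46 in siEchs1 (adjusted p = 0.577) and 0.77 in siCon (adjusted p = 0.187), and without siEchs1 E2C replicate 3 it gave 1.07 in siEchs1 (adjusted p = 0.0335). The siCon change of 0.77 was also called in that fit (adjusted p = 0.0336) and with the compared libraries alone (adjusted p = 0.0413). The sign of the siRNA effect at E2C turned to 0.17 when values were rescaled without mitochondrial and ribosomal RNA.

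Asns encodes asparagine synthetase, and it was among the lowest of the 10 genes. At L2C it had 11.0, 4.34 and 1.57 FPKM in siEchs1, against 3.48, 1.80 and 1.26 FPKM in siCon. At E2C it had 3.03, 1.27 and 1.89 FPKM in siEchs1, against 0.62, 0.22 and 0.33 FPKM in siCon. The siEchs1 libraries were all above siCon at E2C and overlapped it at L2C. The log2 change was 0.85 at L2C (SE 0.49, adjusted p = 0.172) and 1.11 at E2C (SE 0.49, adjusted p = 0.129), and neither was called. The L2C change was 0.28 to 1.39 with each library left out in turn, and was called without siEchs1 L2C replicate 3 (1.39, adjusted p = 0.0298). With a pseudocount of 0.1 in place of 1 the E2C change was 2.14 and was called (adjusted p = 0.0490). L2C against E2C gave 0.88 in siEchs1 (adjusted p = 0.276) and 1.14 in siCon (adjusted p = 0.0700). The siCon change was called with a pseudocount of 0.1, after rescaling without mitochondrial and ribosomal RNA, with either replicate block, with the compared libraries alone, and without siEchs1 L2C replicate 1 or 3.

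Chac1 encodes a glutathione-degrading cyclotransferase and is among the classic targets of ATF4 and CHOP. At L2C it had 44.7, 15.7 and 7.59 FPKM in siEchs1, against 2.25, 9.37 and 2.70 FPKM in siCon. In E2C embryos the gene had 8.76, 11.9 and 2.14 FPKM in siEchs1, against 0.18, 0.77 and 1.70 FPKM in siCon. The groups were apart at E2C by a narrow gap, and at L2C siEchs1 replicate 3 lay below siCon replicate 2. Chac1 averaged 22.6 ± 19.5 FPKM in siEchs1 and 4.77 ± 3.99 FPKM in siCon at L2C, where it was called (log2 change 1.90, SE 0.69, adjusted p = 0.0363). That call did not hold with a pseudocount of 0.1, with no filter on low values, with a replicate block by header numbers, or without siCon L2C replicate 1 or 3 or siEchs1 L2C replicate 1 or 2 (adjusted p up to 0.159). At E2C the change was 2.04 (SE 0.69, adjusted p = 0.0535), and without siEchs1 E2C replicate 3 it was 2.65 (adjusted p = 0.00785). The E2C change was also called with a pseudocount of 0.1, with quantile normalization and after rescaling. It was called without siCon L2C replicate 2 or siEchs1 L2C replicate 1 or 3. Without any other single library, such as siEchs1 L2C replicate 2 (adjusted p = 0.0707), the E2C change was not called. The call was also absent with no filter, with either replicate block and with the compared libraries alone. Over all libraries left out the E2C change was 1.64 to 2.65 (adjusted p up to 0.186). The stage change of Chac1 was 1.35 in siEchs1 (adjusted p = 0.227) and 1.49 in siCon (adjusted p = 0.0895). The siCon change was called with a pseudocount of 0.1, after rescaling, with the compared libraries alone and without siEchs1 E2C replicate 3. The difference between the stages was -0.14 (95% interval -2.25 to 1.97, adjusted p = 0.939).

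Ddit4 encodes REDD1, which restrains mTORC1 through the TSC complex. It had 202, 131 and 190 FPKM in siEchs1 L2C, against 174, 109 and 220 FPKM in siCon L2C. It had 0.97, 1.06 and 5.16 FPKM in siEchs1 E2C, against 0.30, 0.77 and 0.77 FPKM in siCon E2C. The 2 stages were apart in both arms, while the arms overlapped at L2C and lay apart by a narrow gap at E2C. Ddit4 averaged 174 ± 38.0 FPKM at L2C and 2.40 ± 2.39 FPKM at E2C in siEchs1, and 168 ± 55.8 FPKM at L2C and 0.61 ± 0.27 FPKM at E2C in siCon. The stage change was 5.88 in siEchs1 (SE 0.45, adjusted p = 4.21e-05) and 6.66 in siCon (SE 0.45, adjusted p = 1.92e-06). The siRNA effect was 0.09 at L2C (95% interval -0.88 to 1.05) and 0.87 at E2C (-0.09 to 1.84), with adjusted p-values of 0.885 and 0.185. Without siEchs1 E2C replicate 3, the highest of its group, the E2C effect was 0.34 (adjusted p = 0.473). Of the members whose products restrain mTORC1, Sesn2 was thus called lower in siEchs1 L2C and Ddit4 was not called.

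**Figure D3:**
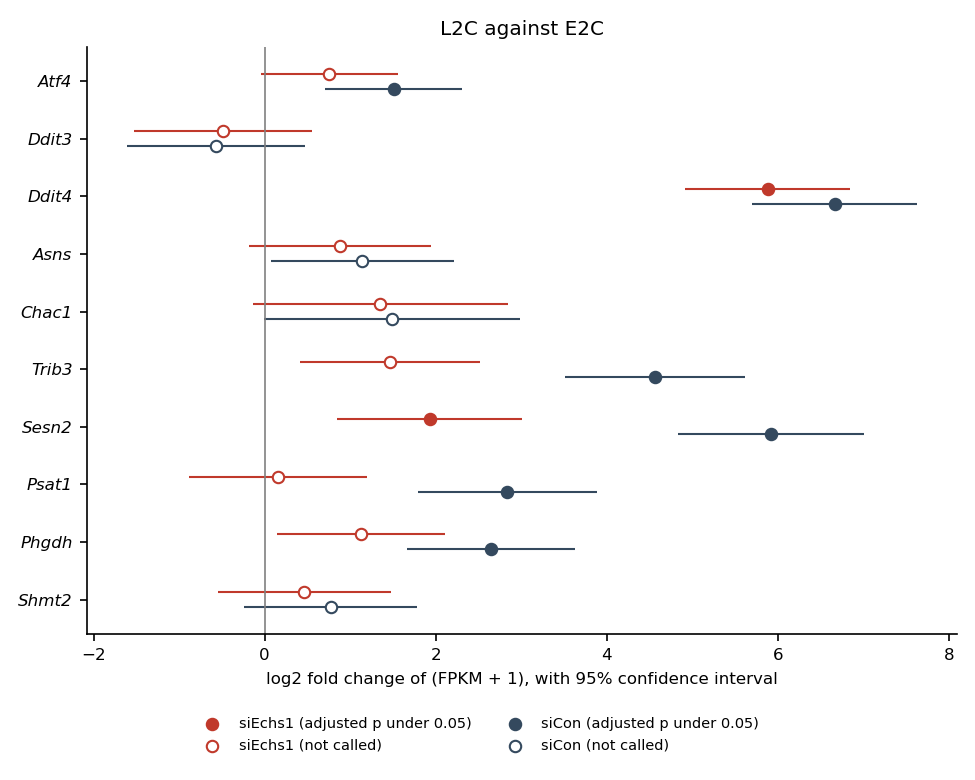
Change between L2C and E2C for each gene in siEchs1 (red) and siCon (dark blue), as log2 fold change of (FPKM + 1) with its 95% confidence interval; filled points were called. Ddit4 changes by 5.88 and 6.66 in the 2 arms, while for Trib3, Sesn2 and Psat1 the siEchs1 and siCon intervals lie apart.

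Atf4 itself had 120, 151 and 148 FPKM in siEchs1 L2C, against 101, 113 and 137 FPKM in siCon L2C. In E2C embryos it had 92.5, 135 and 43.8 FPKM in siEchs1, against 43.8, 38.9 and 38.4 FPKM in siCon. Replicates 1 and 2 of siEchs1 E2C were above all siCon E2C libraries, and replicate 3 equalled the highest of them. The means at E2C were 90.4 ± 45.7 FPKM in siEchs1 and 40.3 ± 2.97 FPKM in siCon, and the log2 change of 1.01 (SE 0.37) was not called (adjusted p = 0.0730). Without replicate 3 it was 1.45 (adjusted p = 0.000894), and after rescaling it was 1.27 (adjusted p = 0.0184). Under no other alternative run was it called. It was 0.65 without siEchs1 E2C replicate 2 (adjusted p = 0.264) and 0.69 with quantile normalization (adjusted p = 0.151). At L2C the change was 0.25 (95% interval -0.55 to 1.06, adjusted p = 0.594). The stage change was 0.76 in siEchs1 (adjusted p = 0.207) and a rise of 1.51 in siCon (SE 0.37, adjusted p = 0.00478). The order of group means was siCon E2C, siEchs1 E2C, siCon L2C and siEchs1 L2C, and neighbours in that order overlapped.

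Ddit3 encodes CHOP, a partner of ATF4 in prolonged stress. It had 126, 63.8 and 84.7 FPKM in siEchs1 L2C, against 57.9, 99.4 and 61.3 FPKM in siCon L2C. It had 218, 162 and 53.9 FPKM in siEchs1 E2C, against 86.6, 139 and 97.2 FPKM in siCon E2C. All groups overlapped, and the siEchs1 E2C libraries held both the highest and the lowest Ddit3 value of the siRNA experiment. The log2 change was 0.31 at L2C (95% interval -0.73 to 1.35) and 0.23 at E2C (-0.81 to 1.27), with adjusted p-values of 0.615 and 0.775. The E2C change was 0.82 without siEchs1 E2C replicate 3 (adjusted p = 0.0806). L2C against E2C gave -0.49 in siEchs1 and -0.57 in siCon (adjusted p = 0.564 and 0.344). Without siEchs1 E2C replicate 3 the stage change in siEchs1 was -1.08 (adjusted p = 0.0441). The files list a further Ddit3 entry that overlaps the one used, at 0 in all siRNA libraries and up to 5.90 FPKM in the treatment libraries.

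Over the 12 siRNA libraries Phgdh followed Atf4 most closely among the members compared, with a Pearson r of 0.941 on log2(FPKM + 1), rank 76 of 10249 genes with a mean of at least 5 FPKM. Chac1 and Ddit4 had r of 0.740 and 0.728, Sesn2 and Trib3 had 0.484 and 0.472, and Psat1, Shmt2 and Ddit3 had 0.08, 0.02 and -0.02. Asns, with r of 0.587, was below the minimum mean. The 5 genes most like Atf4 were Hnrnpk (0.988), Kif22 (0.980), Gm9774 (0.979), Dhdds (0.978) and Cct3 (0.977). These values describe libraries that fall into 4 groups and share stage and siRNA.

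Lists of other genes of the pathway were counted in the same test. Upstream of ATF4, among 17 genes for eIF2, its kinases, exchange factor and phosphatase, 3 were called higher and 4 lower in siEchs1 at L2C, and 4 higher at E2C, with median log2 changes of 0.16 and 0.60. The shares of all genes called, given above, were 21.9% higher and 26.9% lower at L2C, near those of these upstream genes, and 11.0% higher and 9.31% lower at E2C. Without siEchs1 E2C replicate 3 the E2C count was 8 higher and 1 lower, against 23.2% and 14.0% of all genes, and the L2C count was 6 higher and 6 lower, against 27.7% and 31.0% of all genes (58.7% called). Ppp1r15a (GADD34), the stress-induced subunit that returns eIF2 to its unphosphorylated state, averaged 92.9 ± 21.9 FPKM in siEchs1 and 407 ± 118 FPKM in siCon at L2C (log2 change -2.10, adjusted p = 0.00108). Its constitutive counterpart Ppp1r15b fell by 1.99 (adjusted p = 0.00102). Oma1, the mitochondrial protease that relays stress to the kinase HRI, was higher in siEchs1 L2C, at 31.9 ± 11.2 against 2.65 ± 1.31 FPKM (3.18, adjusted p = 0.000666). Eif2ak1, which encodes HRI, was called higher at L2C (1.12, adjusted p = 0.00953) and at E2C (1.57, adjusted p = 0.00457). Of 13 partner and related transcription factors 1 was higher and 7 were lower at L2C (median -1.16), and 1 was higher and 2 were lower at E2C. Nupr1, a stress-induced chromatin protein, averaged 4.19 ± 2.88 FPKM in siEchs1 and 70.6 ± 23.2 FPKM in siCon at L2C (-3.93, adjusted p = 0.000249), and fell by 3.10 at E2C (adjusted p = 0.00376).

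Among 13 other genes of amino acid synthesis and one-carbon metabolism, 4 were higher and 3 lower in siEchs1 at L2C (median 0.01), and 2 were higher and 1 lower at E2C. At L2C that was 30.8% higher and 23.1% lower, against 21.9% and 26.9% of all genes. At E2C the shares of all genes were 11.0% higher and 9.31% lower. Shmt1, the cytosolic counterpart of Shmt2, averaged 11.5 ± 4.62 FPKM in siEchs1 and 176 ± 64.8 FPKM in siCon at L2C (-3.84, adjusted p = 6.04e-05). Mthfd1, a cytosolic folate enzyme, went the other way at 31.9 ± 2.86 against 4.68 ± 1.30 FPKM (2.56, adjusted p = 0.000259). Cth, which makes cysteine from cystathionine, averaged 94.1 ± 40.3 FPKM in siEchs1 and 443 ± 128 FPKM in siCon at E2C (-2.27, adjusted p = 0.00692). Of 7 amino acid transporters tested, 2 were higher and 2 lower at L2C (28.6% each, against the same shares of all genes). At E2C 2 were higher, or 0 without siEchs1 replicate 3, against 23.2% of all genes without it. Slc1a5, a neutral amino acid carrier, fell by 4.60 at L2C (2.86 ± 2.06 FPKM in siEchs1 against 85.7 ± 21.7 FPKM in siCon, adjusted p = 5.18e-05), and its relative Slc1a4 fell by 2.47 (adjusted p = 0.000155). Slc7a11, the cystine importer, was higher at L2C at 13.9 ± 1.48 against 7.02 ± 3.00 FPKM (0.96, adjusted p = 0.0292).

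Among the called genes of tRNA charging and of the endoplasmic reticulum, most were higher in siEchs1. Of 13 aminoacyl-tRNA synthetases 7 were higher and 1 was lower in siEchs1 at L2C (median 1.35), and 5 were higher at E2C (median 1.10), or 7 without siEchs1 E2C replicate 3. These counts stand against 21.9% of all genes called higher at L2C, 11.0% at E2C and 23.2% at E2C without that replicate. The shares called lower were 26.9%, 9.31% and 14.0%, in that order. All these shares apply to the further lists of this paragraph as well. Cars averaged 32.0 ± 2.83 FPKM in siEchs1 and 6.38 ± 0.68 FPKM in siCon at L2C (2.16, adjusted p = 0.000541), while Yars fell by 2.43 (adjusted p = 0.000773). Of 16 genes of the unfolded protein response 6 were higher and 1 was lower at L2C (median 0.63), and 10 were higher and 1 was lower at E2C (median 1.35), or 11 and 1 without siEchs1 E2C replicate 3. Without that replicate the L2C count was 8 higher and 2 lower, against 27.7% and 31.0% of all genes. Calr, a chaperone of the endoplasmic reticulum, averaged 165 ± 51.4 FPKM in siEchs1 and 36.6 ± 2.21 FPKM in siCon at E2C (2.09, adjusted p = 0.000999). Herpud1, a degradation factor of that organelle, was at 52.8 ± 20.6 FPKM in siEchs1 and 1.34 ± 1.29 FPKM in siCon at L2C (4.63, adjusted p = 0.00144), and Dnajb9, a co-chaperone, fell by 2.87 there (adjusted p = 0.000177). Among 10 genes of mitochondrial stress 2 were higher and 2 lower at L2C (4 and 2 without siEchs1 E2C replicate 3) and 2 were higher at E2C. Among 10 other genes of the sestrin and mTOR axis 1 was higher and 5 were lower at L2C, among them Sesn1, a relative of Sesn2, at 2.80 ± 0.25 against 8.73 ± 1.18 FPKM (-1.35, adjusted p = 0.00290), and 1 was higher at E2C (1 higher and 3 lower without siEchs1 E2C replicate 3). The oocyte genes, 7 of 7 higher at L2C, and the 2-cell genes, 6 of 6 lower, shifted in the same comparison. The lists themselves had no common direction, and the part of these shifts in them was not tested.

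**Figure D4:**
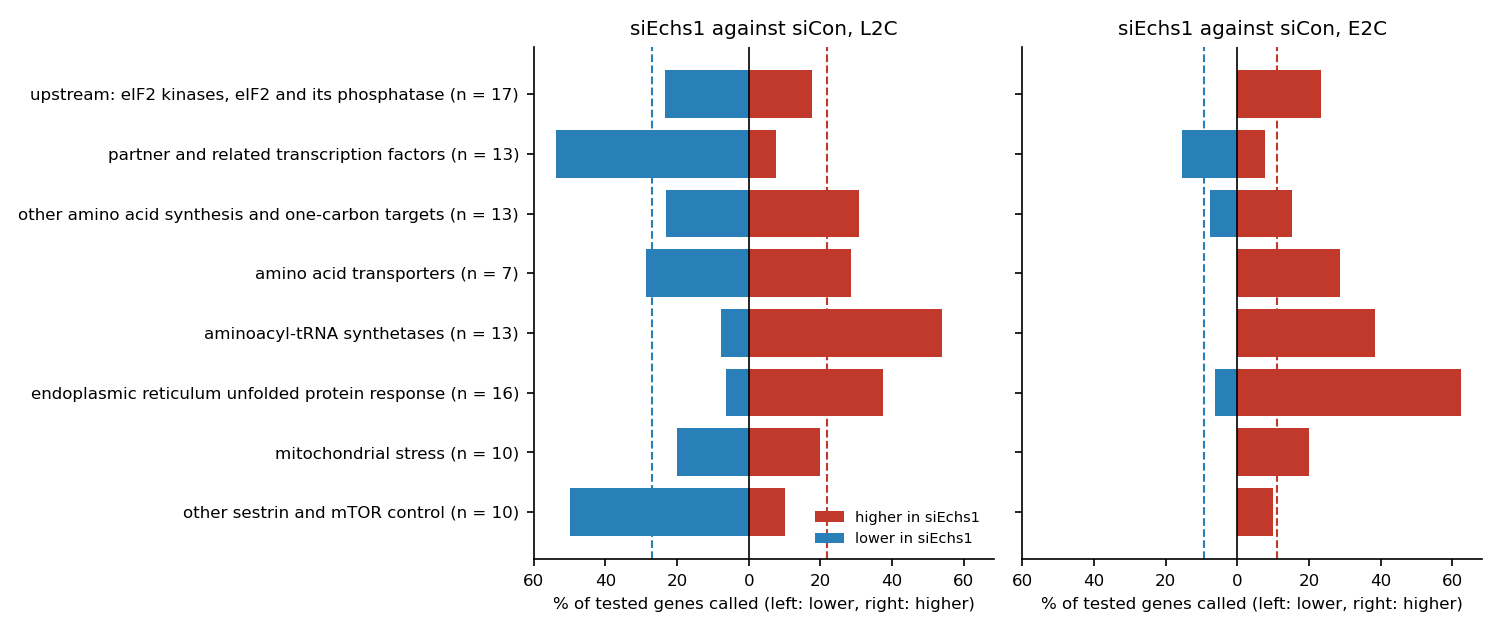
Share of the tested genes of each list that were called higher (right, red) or lower (left, blue) in siEchs1 than in siCon, in percent, at L2C and at E2C, with n genes tested per list; dashed lines mark the share over all genes tested. At E2C 10 of 16 genes of the unfolded protein response are higher, and at L2C 7 of 13 partner transcription factors are lower.

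With stage, the lists also moved in control embryos. L2C against E2C in siCon called higher 7 of 17 upstream genes, 9 of 13 partner factors, 6 of 7 transporters, 7 of 13 synthetases and 8 of 16 genes of the unfolded protein response, against 35.8% of all genes, a share near that of the upstream genes. With quantile normalization the synthetases called higher were 3 and the genes of the unfolded protein response 6, and the upstream genes were 6 higher and 3 lower. The share of all genes also moved in that setting, with 4192 of 17653 called higher and 4242 lower. Ppp1r15a stood at 92.9 ± 21.9 FPKM in L2C and 28.7 ± 13.5 FPKM in E2C of siEchs1 (1.74, adjusted p = 0.0126), and at 407 ± 118 FPKM in L2C and 28.3 ± 9.17 FPKM in E2C of siCon (3.80, adjusted p = 1.67e-05). Atf5, a relative of Atf4, rose by 1.59 in siEchs1 and by 2.95 in siCon (adjusted p = 0.0105 and 3.49e-05). The siRNA effect on Ppp1r15a differed between stages by -2.05 (adjusted p = 0.0273), that on Shmt1 by -4.06 (adjusted p = 0.00266) and that on Slc1a5 by -3.77 (adjusted p = 0.00516).

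In the treatment experiment 8 of the 10 genes passed the filter of at least 1 FPKM in 2 libraries, since Asns and Trib3 did not, and none of the 8 was called by limma for crotonate against DMSO, acetate against DMSO or crotonate against acetate. Of the 13806 genes tested 0.529% were called for crotonate against DMSO, 0.0724% for acetate against DMSO and 1.86% for crotonate against acetate. At an unadjusted p under 0.05, 1 of the 8 passed for crotonate against DMSO, 0 for acetate against DMSO and 2 for crotonate against acetate, against 16.4%, 5.97% and 19.5% of all genes. Crotonate has a longer, unsaturated carbon chain than acetate, and the labels do not say whether their doses matched. Both comparisons with DMSO share its 2 libraries. The summed 2-cell genes were 224 to 228 FPKM with crotonate and 157 to 220 FPKM with acetate, against 92.3 to 190 FPKM with DMSO. The summed oocyte genes were 1046 to 1262 FPKM with crotonate and 1340 to 2129 FPKM with acetate, against 1618 to 1929 FPKM with DMSO, and the part of these levels in the results was not tested.

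Psat1 had 6.52 and 10.7 FPKM with crotonate and 3.41 and 4.03 FPKM with acetate, against 3.83 and 2.81 FPKM with DMSO. Both crotonate libraries were above the other 4. The log2 change was 1.13 for crotonate against DMSO (95% interval 0.25 to 2.00, adjusted p = 0.197), 0.13 for acetate against DMSO (-0.74 to 1.01) and 0.99 for crotonate against acetate (0.12 to 1.87, adjusted p = 0.202). Ddit3 had 14.0 and 17.4 FPKM with crotonate and 29.7 and 34.4 FPKM with acetate, against 21.7 and 22.2 FPKM with DMSO. For the Ddit3 entry used, the 3 ranges were apart, lowest with crotonate and highest with acetate. Crotonate against acetate gave -0.99 (95% interval -1.69 to -0.29, adjusted p = 0.126). The further, overlapping Ddit3 entry held 5.9 FPKM in DMSO replicate 1 and 4.67 FPKM in crotonate replicate 2, and was not added. The share of all genes with ranges apart in groups of 2 was not counted. Atf4 had 20.4 and 21.8 FPKM with crotonate and 21.5 and 57.0 FPKM with acetate, against 27.5 and 57.3 FPKM with DMSO. The acetate and DMSO groups each held 1 low and 1 high library, and crotonate against DMSO gave -0.89 (95% interval -2.09 to 0.31, adjusted p = 0.449).

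Ddit4 had 3.83 and 3.40 FPKM with crotonate and 2.61 and 8.29 FPKM with acetate, against 8.90 and 8.19 FPKM with DMSO, and crotonate against DMSO gave -1.05 (95% interval -2.16 to 0.06, adjusted p = 0.330). Phgdh had 3.06 and 2.65 FPKM with crotonate and 2.76 and 6.28 FPKM with acetate, against 2.11 and 2.80 FPKM with DMSO. Shmt2 had 24.3 and 21.7 FPKM with crotonate and 21.6 and 25.1 FPKM with acetate, against 17.6 and 21.9 FPKM with DMSO. For Phgdh and Shmt2 the 3 groups overlapped. Sesn2, Chac1, Asns and Trib3 were low, at no more than 2.18 FPKM in any treatment library. Of these, Trib3 was at 0.86 and 1.62 FPKM with crotonate and 0.12 and 0.48 FPKM with acetate, against 0.32 and 0.16 FPKM with DMSO, and was not tested. Crotonate against acetate gave intervals that took in 0 for Atf4 (-1.91 to 0.49), Ddit4 (-1.44 to 0.78), Chac1 (-0.44 to 1.13), Sesn2 (-0.51 to 1.52), Phgdh (-1.41 to 0.52) and Shmt2 (-0.73 to 0.69), which does not show that the compounds act alike on these genes.

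**Figure D5:**
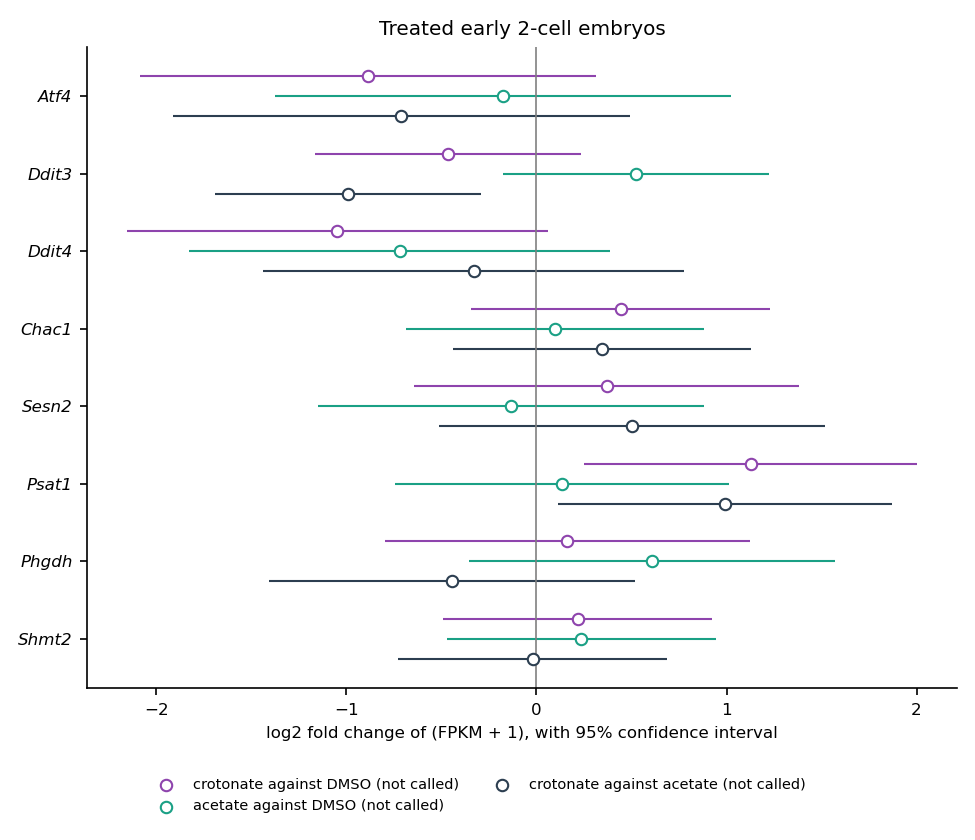
Change in the 8 tested genes for crotonate against DMSO (purple), acetate against DMSO (green) and crotonate against acetate (dark blue), as log2 fold change of (FPKM + 1) with its 95% confidence interval; no point was called. The intervals for Psat1 under crotonate and for Ddit3 in crotonate against acetate leave out 0 before adjustment.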

How the data were processed

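Expression was measured in 18 libraries, 12 of the siRNA and 6 of the treatment experiment. The submitters' processing notes name cutadapt 1.16 for trimming, STAR for alignment and the mm10 build. The version of STAR, the counting program and its annotation are not stated there. The authors deposited FPKM values, scaled per library and per gene length, with no counts and no strand. Low values gave no whole reads (37.7 to 53.1% of values within 0.15 of a whole number), so depth is unknown and no counting interval is given.

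Groups came from the sample titles, which for replicates 2 and 3 of siEchs1 L2C disagree with the file headers. From the FPKM values log2(FPKM + 1) was computed and tested, two-sided, with limma 3.58.1 in R 4.3.3 (trend and robust variance), with 1 fit per experiment, among genes with at least 1 FPKM in 3 siRNA or 2 treatment libraries. Calls used a Benjamini-Hochberg adjusted p under 0.05. The script was tested on simulated data. Gene overlaps came from GENCODE M21 (GRCm38). Named genes beside the 10 members are the called list genes with the smallest adjusted p, up to 3 per direction and list, of which those of clearest role are printed. Members and lists were chosen with earlier results of these data known. Alternatives were another pseudocount, no filter, quantile normalization, rescaling without mitochondrial and ribosomal RNA, a replicate block, the compared libraries alone and each library left out; a block by header numbers and the list counts under other settings were chosen after seeing the data.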

Additional observations from a re-analysis of the deposited data

Results flagged for a closer look

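The siRNA effect differed between stages for 3 of the 10 genes by the interaction term of the limma fit. Of all genes 17.2% were called for this term, 5.65% higher and 11.6% lower. Trib3 differed by -3.10 on the log2 scale, Sesn2 by -3.99 and Psat1 by -2.68 (effect at L2C minus effect at E2C). In each of these genes all 3 siEchs1 L2C libraries lay below all 3 siCon L2C libraries. That restates the L2C values behind the term and adds no further support.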

How the results depend on the processing

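Trib3, Sesn2 and Psat1 at L2C and Phgdh at E2C kept their calls and directions under all alternatives run, though Phgdh reached a limma adjusted p of 0.0499 with a library left out. The number of the 10 genes called at E2C, 1 in the reported fit, was 3 with a pseudocount of 0.1, 2 with quantile normalization and 3 after rescaling without mitochondrial and ribosomal RNA, and 1 to 4 when each library was left out in turn. Over all genes the E2C calls numbered 3578 in the reported fit and 3781, 3577 and 3900 in these alternatives, in that order. Without siEchs1 E2C replicate 3, which gave the 4 calls, 37.2% of all genes were called, against 20.3%. Leaving out each library gave 3 to 5 at L2C, 2 to 5 for the difference of siRNA effects, 1 to 5 for L2C against E2C in siEchs1 and 6 to 8 for L2C against E2C in siCon. Without siEchs1 E2C replicate 3, 23.5% of all genes were called for the difference and 19.9% for the stage change in siEchs1, against 17.2% and 14.6%. For other libraries left out the share of all genes is not given, so these ranges do not single out the members. The stage count in siEchs1, 2 as reported, was 1 with no filter, 1 with quantile normalization and 1 with the compared libraries alone. Over all genes these stage calls went from 2572 to 1703, 1860 and 827. No treatment comparison called a member under any alternative. The cause of these changes was not tested. Rescaling turned Shmt2 at E2C to 0.173, the Ddit3 difference to -0.178 and Shmt2 in crotonate against acetate to 0.131, and quantile normalization turned Psat1 between stages in siEchs1 to -0.246 and Shmt2 in crotonate against acetate to 0.136.

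Leaving out single libraries turned the sign of uncalled log2 changes. For siEchs1 against siCon at E2C these were Ddit3 (-0.17 to 0.82), Trib3 (-0.33 to 0.011), Sesn2 (-0.40 to 0.56) and Shmt2 (-0.70 to 0.36). For siEchs1 against siCon at L2C this was Ddit4 (-0.19 to 0.31). For the difference of the effects these were Ddit3 (-0.51 to 0.48), Asns (-0.83 to 0.28), Chac1 (-0.78 to 0.42) and Shmt2 (-0.77 to 0.30). For L2C against E2C in siEchs1 this was Psat1 (-0.33 to 0.57). For acetate against DMSO these were Atf4 (-0.86 to 0.51), Chac1 (-0.11 to 0.30), Sesn2 (-0.58 to 0.32) and Psat1 (-0.036 to 0.31). For crotonate against acetate these were Ddit4 (-1.01 to 0.35), Phgdh (-0.92 to 0.034) and Shmt2 (-0.12 to 0.083).

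Quantile normalization gave 1695 higher and 1882 lower of all genes at E2C, against 1934 and 1644 as reported, and rescaling gave 2704 and 1196, with the median of all genes at 0.31 in place of 0.15. For L2C against E2C quantile normalization gave 1075 higher and 785 lower in siEchs1, against 2090 and 482 (median of all genes -0.06 in place of 0.23), and 4192 and 4242 in siCon, against 6326 and 2544 (median -0.01 in place of 0.51, or 0.76 with rescaling). For the difference of the effects it gave 1600 and 1558, against 997 and 2042 (median 0.004 in place of -0.21, or -0.39 with rescaling). Quantile normalization gave 30 higher and 30 lower for crotonate against DMSO, against 29 and 44, and 179 and 96 for crotonate against acetate, against 141 and 116, where rescaling gave 121 and 49 (median 0.025 in place of -0.09). Deviations of same-numbered siRNA libraries correlated at -0.10 to 0.11 by title and at up to 0.22 by header. By header, siCon L2C and siEchs1 L2C gave 0.111, 0.0875 and 0.224. Those of treatment libraries correlated at -0.10 to 0.16. Groups of 2 libraries give the same value for both pairs, so these cannot decide on pairing. The numbers were not taken as pairs in the reported fit, which does not exclude pairing. A replicate block kept 1 call at E2C, 4 at L2C, 3 for the difference and 2 for the stage change in siEchs1, and gave 7 for that in siCon, where it added Asns (1.14). A block by header numbers ended the Chac1 call at L2C (3 calls). Read depth is unknown, and genes near 1 FPKM, such as Asns, Ddit4 and Trib3 at E2C, are the least precise.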

Other observations

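The E2C controls of the 2 experiments, siCon and DMSO, differed in level for several of the 10 genes, across tables that were scaled library by library and without any test. Ddit3 averaged 108 ± 28.0 FPKM in siCon E2C (n = 3) and 21.9 ± 0.37 FPKM in DMSO (n = 2). Psat1 averaged 14.1 ± 3.16 FPKM in siCon E2C and 3.32 ± 0.72 FPKM in DMSO. Ddit4 averaged 0.61 ± 0.27 FPKM in siCon E2C and 8.54 ± 0.50 FPKM in DMSO. Atf4 was close in mean, at 40.3 ± 2.97 FPKM in siCon E2C and 42.4 ± 21.1 FPKM in DMSO.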
